A study of Mus musculus with 2 samples.

Results

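The large cytosolic ribosomal subunit genes were the protein-coding genes named Rpl with a number and up to 2 letters a or l, or Rplp0, Rplp1 and Rplp2. The pattern matched 52 annotated genes, and 50 of them were protein-coding, out of 55536 genes in the annotation. The other 2, Rpl32l and Rpl6l, are annotated as processed pseudogenes and were left out. Selection used names only and no measured value. The 2 libraries were made from total RNA of the left cerebral cortex of adult B6NCrl mice aged 6 months and carry no treatment or engineered allele in the labels. They are biological replicates 1 and 2 of 1 group, and both tissue samples share 1 donor record, described as male in 1 field and with the sex not collected in another. The labels do not say that the samples came from separate animals. The study had no second condition, so replicate 2 was set against replicate 1 only to see how far 2 libraries of 1 tissue differed beyond counting noise.

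The large subunit of the cytosolic ribosome joins amino acids into protein. Its proteins coat a core of ribosomal RNA, line the tunnel through which the new chain leaves, and form a flexible stalk that recruits elongation factors. Their genes are expressed in nearly every cell, and their mRNAs are short and abundant. Many begin with a C followed by a run of pyrimidines, the TOP motif, through which growth signals set how well they are translated. Many also host small nucleolar RNAs in their introns, and mammalian genomes hold intronless copies of nearly all of them, made by reverse transcription of their mRNAs.

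The assay reads each cDNA molecule as 1 long read and assigns it to a transcript model. A count is therefore a number of cDNA molecules read, and reads per 1000000 reads of the library (CPM) compare genes without division by length. The libraries held 1306424 reads in replicate 1 and 1304133 in replicate 2, so 1 read stood for 0.765 and 0.767 CPM. Markers of cortical cell types were detected for every list, with oligodendrocyte markers summing to 4991 and 4598 CPM and excitatory neuron markers to 1046 and 826 CPM. Sums were higher in replicate 2 for inhibitory neurons (419 and 521 CPM), astrocytes (1150 and 1330), microglia (459 and 501) and endothelium (202 and 229). Red blood cell markers summed to 38.3 and 17.6 CPM, with Alas2 at 0, and choroid plexus markers to 60.5 and 38.3 CPM. Across all reads, 68.2% in replicate 1 and 63.1% in replicate 2 matched a known transcript.

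Members held 40661 reads in replicate 1 and 42630 in replicate 2, or 3.11% and 3.27% of each library. Their summed level was 31906 ± 1106 CPM (SD, n = 2). The median member with a read stood at 587 CPM. Reads were found in both libraries for 47 of the 50 members, on 18 chromosomes in all. The 5 most abundant members held 27.8% of member reads. Genes of the small subunit, a list of 33, summed to 22193 ± 1469 CPM. The 50 members thus held 1.47 and 1.41 times as many reads as these 33 genes in replicates 1 and 2. The median small-subunit gene stood higher than the median member, at 698 CPM. Intronless copies of small-subunit genes were not sought.

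The 8 most abundant members were Rpl41, Rpl3, Rplp1, Rpl37, Rpl13, Rpl26, Rpl4 and Rpl13a. Rpl41, which encodes a very short basic peptide of the subunit, had 2793 and 3149 reads, or 2276 ± 196 CPM (SD, n = 2). Rpl3, whose product reaches towards the peptidyl transferase centre, had 2140 and 2657 reads, or 1838 ± 282 CPM (SD, n = 2). Rplp1 had 2284 and 2312 reads, or 1761 ± 17.4 CPM (SD, n = 2). The ranges of Rpl3 and Rplp1 overlapped, whereas Rpl41 lay above Rpl3 in both libraries. Rpl37 followed with 1990 and 2122 reads, Rpl13 with 1858 and 1814, and Rpl26 with 1725 and 1628. Rpl4 had 1473 and 1520 reads and Rpl13a, whose product is also known to leave the ribosome upon interferon signalling, had 1291 and 1381. From Rplp1 to Rpl13a every member lay below its upper neighbour in both libraries, the order of these 6 being Rplp1, Rpl37, Rpl13, Rpl26, Rpl4, Rpl13a. Over all 47 members with 10 or more reads, 15 of the 46 pairs of neighbours in rank had ranges that did not overlap. The ranges of the other pairs overlapped, although some, such as Rpl13a and Rpl32, kept their order in both libraries.

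**Figure D1:**
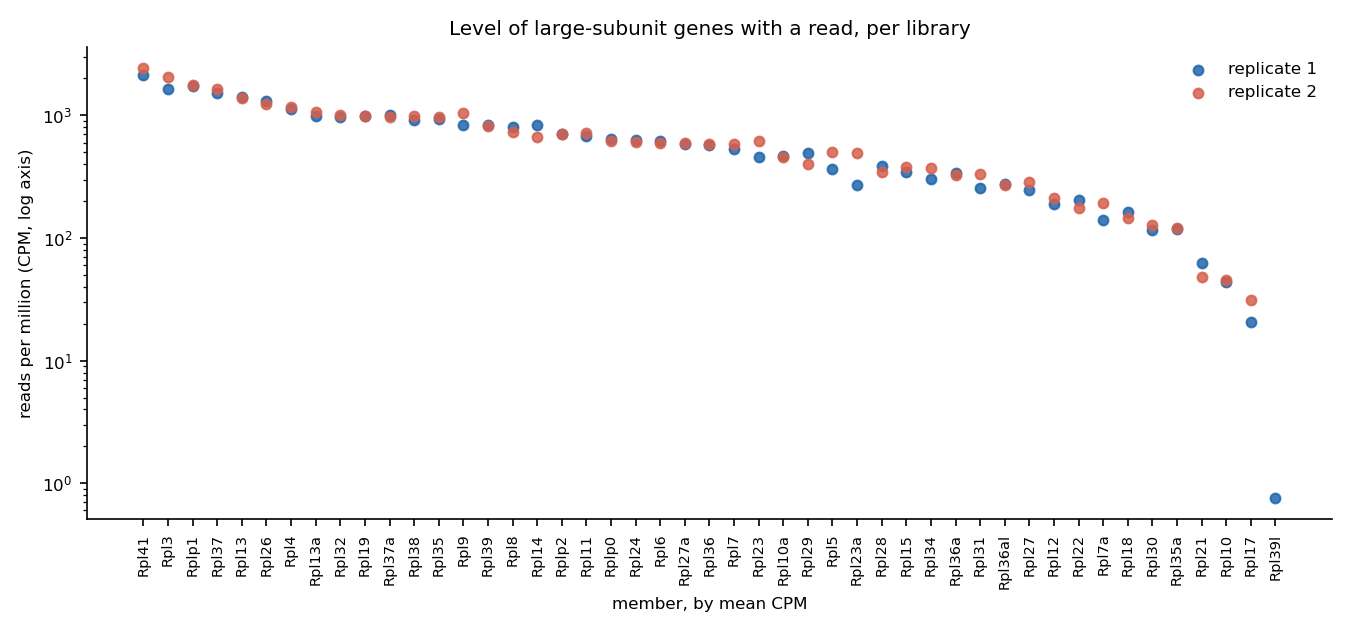
CPM of 47 members with a read in replicate 1 (blue) and replicate 2 (red), ordered by mean, on a log axis. Values run from 2276 CPM for Rpl41 to 26.1 CPM for Rpl17, with a single read of Rpl39l at the right end; Rpl10l and Rpl3l, at 0, and 1 further member are not drawn.

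At the lower end stood Rpl39l, Rpl17, Rpl10, Rpl21, Rpl35a and Rpl30. Rpl39l had 1 read, in replicate 1. Rpl17 had 27 and 41 reads, or 26.1 ± 7.62 CPM (SD, n = 2). Rpl10, whose product is among the last to join the maturing subunit, had 57 and 59 reads, or 44.4 ± 1.14 CPM (SD, n = 2). Rpl21 had 81 and 63 reads, Rpl35a 156 and 157, and Rpl30 151 and 165. Apart from Rpl30 and Rpl35a, whose ranges overlapped, these members kept their order in both libraries. The span from Rpl41 to Rpl17 was 87.4-fold, and the quartiles of the tested members were 312, 591 and 954 CPM. Level and the length of the leading transcript, the known transcript with most reads, had a Spearman rho of −0.03 across 47 genes, which share the 2 libraries.

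Near copies of the members were found by sequence, as annotated transcripts of other genes that aligned to a member's coding transcript at 97% identity or more over at least 80% of the copy and 200 bases. There were 226 such copies of 42 members, and 105 copies of 41 members held reads. Of the 105, 94 are annotated as processed pseudogenes, 5 as transcribed processed pseudogenes, 5 as protein-coding and 1 as a long intergenic RNA. They held 12009 reads in replicate 1 and 12411 in replicate 2, which is 22.8% and 22.5% of the reads on members and copies together. Of these reads, 99.7% were on models with a single exon, whereas 99.8% and 99.7% of member reads were spliced. Where a copy and its parent are this alike, the counts cannot tell which of the 2 loci a molecule came from, and how the aligner divided such reads is not given in the sources used here.

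In 6 members the copies held more reads than the member in both libraries: Rpl27, Rpl30, Rpl35a, Rpl21, Rpl10 and Rpl17. These are 6 of the 10 members with the fewest reads among those tested. A low count of the member itself favours this choice, so the overlap is no separate finding. Rpl10 had 57 and 59 reads, while Rpl10-ps3 at chr9:50344201-50344968 (mm10, minus strand, annotated as protein-coding) had 986 and 884. Rpl35a had 156 and 157 reads, while Gm10243 at chr6:48523518-48523850 had 1186 and 1107. Rpl30 had 151 and 165 reads, while Gm12191 at chr11:49678710-49679057 had 533 and 507. Rpl21 had 81 and 63 reads, while Rpl21-ps15 at chrX:151215167-151215649 had 849 and 916. Rpl17 had 27 and 41 reads, and its copies together had 458 and 515, led by Rpl17-ps5 with 205 and 193. Copies held 94.6% and 93.8% of the reads of Rpl10 with its copies, and 78.2% and 75.8% of those of Rpl30.

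The coding sequences of 3 such pairs are set side by side to show how little tells them apart; each is 75 bases of the member's coding sequence and the aligned bases of the copy, 5′ to 3′ on the coding strand, from the GENCODE M21 transcripts, with differing bases in capitals. Over the 642 coding bases of Rpl10 there were 0 differences from Rpl10-ps3. Rpl35a and Gm10243 differed at 1 of 330 bases, and Rpl21 and Rpl21-ps15 at 3 of 480, of which 1 is in the stretch shown.
Rpl10: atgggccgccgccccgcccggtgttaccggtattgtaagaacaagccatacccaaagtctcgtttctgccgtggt
Rpl10-ps3: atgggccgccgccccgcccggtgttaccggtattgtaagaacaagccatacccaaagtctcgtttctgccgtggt
Rpl35a: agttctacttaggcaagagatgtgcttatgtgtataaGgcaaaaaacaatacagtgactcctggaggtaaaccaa
Gm10243: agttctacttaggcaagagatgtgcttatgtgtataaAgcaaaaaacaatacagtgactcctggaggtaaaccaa
Rpl21: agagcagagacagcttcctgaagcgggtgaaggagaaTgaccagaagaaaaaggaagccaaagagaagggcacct
Rpl21-ps15: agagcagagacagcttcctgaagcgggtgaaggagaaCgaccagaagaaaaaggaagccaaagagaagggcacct
The Rpl10 stretch starts at the first coding base, and the other stretches are centred on a difference.

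Members of higher level had copies with many reads as well. Gm10076, a long intergenic RNA by annotation that aligned to Rpl41 at 99.5% over 383 bases, had 1281 and 1455 reads, the most of any copy. Gm7536, identical to Rpl27a over 444 bases, had 632 and 671 reads. Among copies named after their parent, Rpl31-ps8 had 343 and 426 reads, Rpl19-ps11 had 365 and 386, Rpl3-ps1 had 259 and 376 and Rpl15-ps3 had 331 and 297. Over the alignment, 14 of the copies with reads were identical to a member. Copies with at least 100 reads over both libraries numbered 40 and held 95% of all copy reads. No near copy with reads was found for Rpl4, Rpl32, Rpl39, Rpl8, Rplp2 and Rpl22, nor for the 3 paralogs with next to no reads.

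With the reads of near copies added to their members, the order of the lower members was another. The sum was 41261 ± 1336 CPM (SD, n = 2) in place of 31906 ± 1106. The span from the highest to the lowest tested member narrowed from 87.4-fold to 20.5-fold, and the SD of the log2 CPM across the 47 members went from 1.40 to 0.87. Rpl21 moved from rank 45 to rank 10, at 1129 ± 13.3 CPM, and Rpl35a from rank 44 to rank 11, at 1108 ± 39.8 CPM (SD, n = 2). Rpl10 moved from rank 46 to 22 and Rpl17 from 47 to 41. Rpl41, Rpl3 and Rplp1 stayed among the 4 most abundant, with Rpl37 moving above Rplp1.

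Rpl23a, Rpl14 and Rpl5 differed between the libraries in the same direction as their copies together. So did Rpl41, Rpl3, Rpl23, Rpl29, Rpl34, Rpl31 and Rpl7a, which with Rpl9 are the other members listed below by the adjusted p alone. Rpl9 did not. Several pairs named above did not either, among them those of Rpl30 and Rpl21, but these 2 members did not pass that test. Rpl30 had 151 and 165 reads and Gm12191 533 and 507, while Rpl21 had 81 and 63 and Rpl21-ps15 849 and 916. Rpl23a went from 353 to 641 reads, and its copies Gm10132 from 28 to 53, Rpl23a-ps3 from 27 to 46 and Gm10335 from 19 to 36. Rpl14 went from 1098 to 864 reads and Rpl14-ps1 from 113 to 54, a wider ratio than that of the member. Rpl5 went from 478 to 657 and Gm15500 from 298 to 403. Rpl9 went from 1100 to 1354 reads, whereas its copies together had 253 and 246. Across the 32 members with at least 100 reads on the member and on its copies over both libraries, the log2 ratios of member and copies correlated with r = 0.71 (Pearson) and rho = 0.53 (Spearman), which describes these 2 libraries only.

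**Figure D2:**
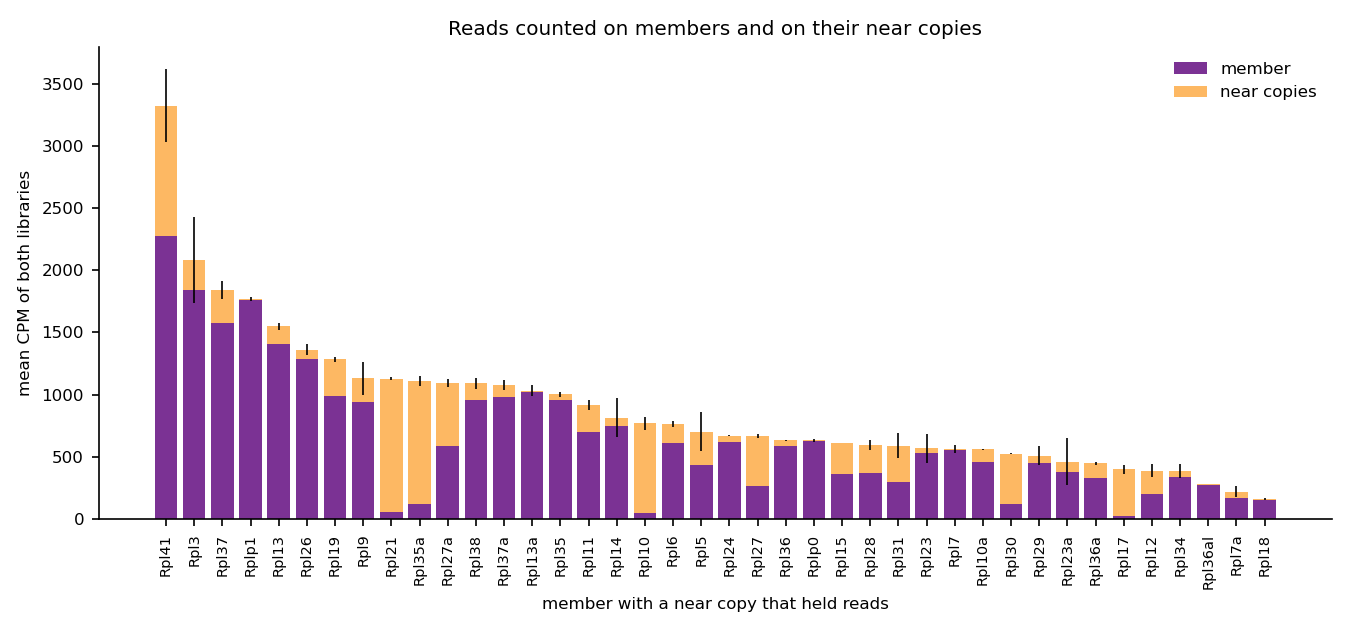
Mean CPM of both libraries counted on each member (purple) and on its near copies (orange, stacked), for 40 of the 41 members with a copy that held reads; error bars are the SD of the sum over the 2 libraries. Rpl21, Rpl35a, Rpl10, Rpl30, Rpl27 and Rpl17 are mostly orange, with Rpl21 at 55.2 CPM on the gene and 1129 CPM with its copies.

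Of the 4 paralogs among the members, 3 had next to no reads. Rpl3l, known from heart and skeletal muscle, had 0 reads in both libraries, which allows up to 2.30 CPM in each at a limit of 3 reads. Rpl3 itself was at least 713-fold and 886-fold higher than that limit in replicates 1 and 2. Rpl10l, a testis paralog of Rpl10, also had 0 reads, and Rpl10 was at least 19-fold higher in replicate 1 and 19.7-fold in replicate 2. These folds rest on the reads of Rpl10 alone, which with its near copies had 1049 and 956 reads. Rpl39l, likewise known from testis, had 1 read against 1081 and 1067 for Rpl39. Rpl36al, an intron-poor paralog of Rpl36a, was the exception. It had 358 and 356 reads against 440 and 423 for Rpl36a, a ratio of Rpl36a to Rpl36al of 1.21 ± 0.03 (SD, n = 2). With the reads of near copies added the gap was wider, at 370 and 368 reads for Rpl36al against 595 and 574 for Rpl36a.

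The stalk genes were not equally abundant. Rplp0, the base of the stalk, had 836 and 805 reads, Rplp1 had 2284 and 2312, and Rplp2 had 914 and 928. Rplp1, which pairs with Rplp2 on the base, thus stood at 2.80 ± 0.10 times Rplp0 (SD, n = 2), while Rplp2 stood at 1.12 ± 0.04 times (SD, n = 2). The ratio of Rplp1 to Rplp2 was 2.50 in replicate 1 and 2.49 in replicate 2. Rpl5 and Rpl11 enter the subunit together with its smallest RNA and, when free, bind the p53 regulator Mdm2. Rpl5 had 478 and 657 reads and Rpl11 had 882 and 939, with Rpl5 below Rpl11 in both libraries. With the reads of near copies added Rpl5 stayed below, at 776 and 1060 reads against 1164 and 1237. Of the reads on Rpl5 itself, 260 and 327 were on Rpl5-204, a transcript not annotated as coding.

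No member was called different between the libraries. A call needed an adjusted p under 0.05 in an exact binomial test against the library totals and at least a 2-fold ratio, and of the 11838 genes tested 5.44% were called lower and 1.61% higher in replicate 2, or 7.05% in all. Of the 47 members tested, 0 were lower and 0 higher. By the adjusted p alone 2 members were lower and 9 higher, where 8.11% and 4.72% of all genes were, or 12.8% in all. This measure depends on depth, and of the 908 genes with at least 500 reads over both libraries 173 were lower and 178 higher by it. The median absolute log2 ratio was 0.10 over members, 0.36 over all genes tested and 0.18 over the genes with at least 500 reads. Of the members, 45 (95.7%) lay within 1.5-fold, compared with 68.3% of all genes tested and 88.9% of those with at least 500 reads. The test compares these 2 libraries against counting noise, which may be smaller than the spread between animals. In bulk tissue, a different mix of cells and a different amount of RNA per cell cannot be told apart.

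The widest difference was that of Rpl23a, whose product sits at the tunnel exit. It had 353 reads in replicate 1 and 641 in replicate 2, a log2 ratio of 0.86 (adjusted p = 2.81e-18, exact binomial test with Benjamini-Hochberg adjustment). Rpl3 (log2 ratio 0.31), Rpl41 (0.18), Rpl9 (0.30), Rpl23 (0.43), Rpl5 (0.46), Rpl34 (0.30), Rpl31 (0.39) and Rpl7a (0.46) were the other members higher in replicate 2 by the adjusted p alone. Rpl14, with 1098 and 864 reads, and Rpl29, with 650 and 528, were lower in replicate 2 by the same measure, with log2 ratios of −0.34 and −0.30. Rpl17 had a log2 ratio of 0.60 on 27 and 41 reads, and did not pass the test (adjusted p = 0.33, exact binomial test with Benjamini-Hochberg adjustment).

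**Figure D3:**
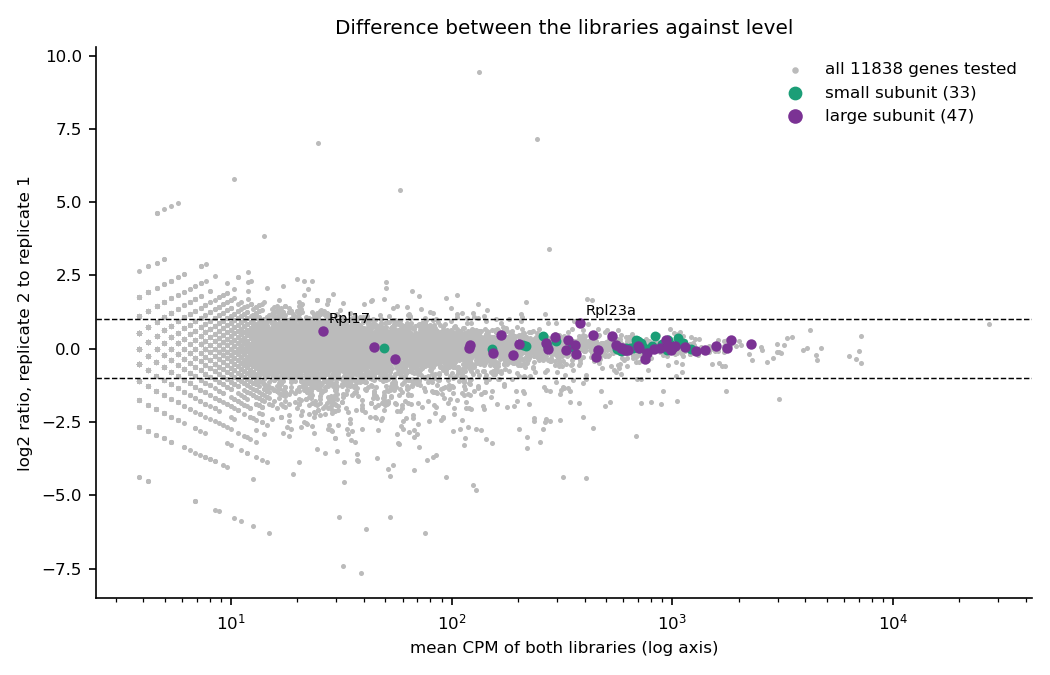
Log2 ratio of replicate 2 to replicate 1 against mean CPM (log axis) for all 11838 genes tested (grey), the 33 small-subunit genes (green) and the 47 members tested (purple); dashed lines mark a 2-fold ratio. All purple points lie between the lines, with Rpl23a the highest at 0.86.

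Genes that work with the large subunit were read from 5 lists. None of the 33 small-subunit genes was called, and by the adjusted p alone 0 were lower and 10 higher in replicate 2. By that measure 8.11% of all genes tested were lower and 4.72% higher. Of the 908 genes with at least 500 reads over both libraries, 173 were lower and 178 higher by it. The median absolute log2 ratio of the small-subunit genes was 0.10, as for the large subunit. Of 3 genes for large-subunit proteins or their paralogs outside the name pattern, 0 were called, and Rpl22l1, a paralog of Rpl22, had 495 and 568 reads. Rpl22l1 thus held more reads than Rpl22, with 265 and 230, in both libraries. Of the 35 assembly factors all had reads in both libraries, with a median of 33.7 CPM, and of 34 tested 1 was lower and 0 were higher. That gene was Noc2l, an early assembly factor, with 59 and 20 reads. Npm1, a nucleolar chaperone, had the highest mean level of the list, with 366 and 390 reads, although Ddx24, an RNA helicase, had 386 and 349. Of 14 genes that act on TOP mRNAs, Eif4ebp2, a repressor of cap-dependent translation, was lower with 28 and 8 reads, and 0 were higher. Larp1, which binds the TOP motif, had 20 reads in each library. Of 6 elongation factor genes, Eef1a2 was lower with 55 and 13 reads and 0 were higher, while Eef1a1 had 2004 and 2089 reads. In each of these last 3 lists the calls thus rest on 1 gene. By the adjusted p alone 1 assembly factor was lower and 2 were higher. Of the genes that act on TOP mRNAs 1 was lower and 3 were higher, and of the elongation factor genes 2 were lower and 0 higher.

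The start of the leading transcript was read from the annotation's transcript sequences. A run of at least 5 pyrimidines that opens with C lay within the first 30 bases of 31 of the 48 members with a known transcript (64.6%), against 32.3% of 10593 genes tested. It lay at base 1 in 6 members (12.5%), against 2.44%. Of these, 5 are shown because they carry the motif at the annotated first base, with the run in capitals; they are the transcripts' own strand, from 5′ to 3′.
Rpl4: CTTTTCCTgtgggagcagccgggtagagag
Rpl32: CTTCCTTCTTCCTCggcgctgcctacgagg
Rpl36: CTTCCTgtcccggccgccatcggagagcat
Rpl37: CTCTTCCggtctctttggcctcgccggtag
Rpl37a: CTCTTCggacttgggcttgggttccggcga
Rpl32 had the longest of the 5 runs shown, at 14 bases. In Rpl18 and Rpl34 the run began at base 2, in Rplp1 at base 4, in Rpl31 at base 6, and in Rpl8 and Rpl26 at base 7. These windows follow the annotated ends and not the ends of the reads, and a match or its absence is a description of these letters only. Within the spans of 20 members (40.0%) lay 39 annotated genes for small nucleolar or Cajal body RNAs on the same strand, against a host share of 1.27% among 22028 protein-coding genes. Rpl4 held 5 of them, Rpl13a held 4, and Rpl5, Rpl7a, Rpl17 and Rpl23a held 3 each.

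Member reads were more complete than reads of the libraries as a whole, as were those of the small subunit. On members, 94.0% and 93.8% of reads in replicates 1 and 2 matched the whole intron chain of a known transcript. The exact 95% binomial limits (Clopper-Pearson) were 93.8% and 94.3% for the former and 93.5% and 94.0% for the latter. These limits cover counting error only. Incomplete splice matches, which follow only part of a known chain, made up 3.92% and 4.26% of member reads, against 13.0% and 14.8% of all reads. Reads lacking the 5′ part of the chain were the more frequent kind, at 2.89% and 3.41%, and those lacking the 3′ part made up 0.92% and 0.71%. Spliced models held 99.8% and 99.7% of member reads, against 76.5% and 70.2% of all reads. This share leaves out the near copies, whose 12009 and 12411 reads were 99.7% on models with a single exon. It therefore depends on how reads were divided between members and copies, which is not known here. On small-subunit genes, 94.6% and 94.1% of reads matched a whole known chain. Incomplete matches made up 3.25% and 3.74% there, and 99.9% of reads in each library were spliced. Over genes with at least 20 reads in each library, the median known share was 94.4% for the 47 members and 63.8% for all 6644 genes.

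The known share differed little between the libraries for these genes. By Fisher's exact test, with a call at an adjusted p under 0.05 and 10 percentage points, 7.54% of genes were called and 0 of the 47 members. By the adjusted p alone Rpl13a, at 96.0% and 93.4%, and Rpl23, at 97.3% and 93.8%, were lower in replicate 2, where 8.76% of all genes tested differed by that measure. Of the 44 members with at least 100 reads in each library, 33 had a known share of at least 90% in both. Rpl39 stood highest at 99.9% ± 0.07 (SD, n = 2), followed by Rpl35 at 99.7%, Rpl36al at 99.6%, Rplp1 and Rpl37a at 99.0% and Rpl32 at 98.5%. Rpl7a was lowest at 65.6% ± 2.35 (SD, n = 2), below Rpl6 at 76.7%, Rpl22 at 76.8%, Rpl10a at 82.7%, Rplp0 at 83.4% and Rpl14 at 84.8%. In Rpl7a, 54 of 183 and 81 of 252 reads were incomplete matches. Members with more exons in the leading transcript had lower known shares, with a Spearman rho of −0.63 across 47 genes in these 2 libraries, and rho was −0.40 with its length.

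**Figure D4:**
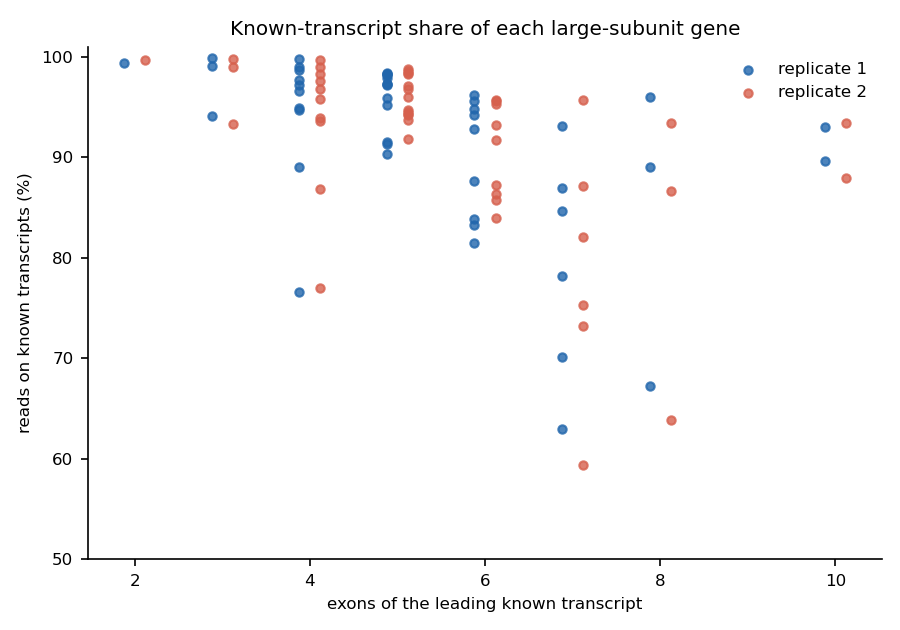
Share of a member's reads on known transcripts against the number of exons of its leading known transcript, for the 47 members tested; replicate 1 is blue and replicate 2 red, set slightly apart, and the share axis starts at 50%. Rpl36al, with 2 exons, averages 99.6%, and the lowest of the genes with at least 100 reads in each library is Rpl7a at 65.6%.

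Known reads of the members fell on protein-coding transcripts for 97.6% in each library. Transcripts annotated as retaining an intron held 573 and 636 reads, and those annotated as targets of nonsense-mediated decay held 32 and 33 reads. Of 46 members with at least 20 known reads in each library, 9 had more than 1 transcript with at least 10% of known reads in both. The leading share differed for 0 of 46 members, where 0.733% of 3956 genes were called at an adjusted p under 0.05 and 10 percentage points (Fisher's exact test). Rpl28 was the 1 member to pass the adjusted p alone, as did 1.11% of all genes tested. Rpl28-201 held 90.2% and 96.9% of its known reads, and Rpl28-202 held 49 reads in replicate 1 and 14 in replicate 2. Ube2s, which overlaps Rpl28 on the opposite strand, had 205 reads in replicate 1 and 16 in replicate 2, and its part in that result was not tested.

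Rpl38 was divided between Rpl38-204, with 706 and 840 reads, and Rpl38-201, with 412 and 367. Both have 5 exons and encode protein, and their first annotated bases are at 114668524 and 114668548 on chromosome 11 (mm10, plus strand). Rpl8 had 798 and 722 reads on Rpl8-201 and 189 and 162 on Rpl8-202, which has 5 exons rather than 6. Rpl31 was divided in 3, with 219 and 260 reads on Rpl31-201, 59 and 71 on Rpl31-202 and 37 and 75 on Rpl31-203. Rpl30-202 held 76.0% ± 3.19 and Rpl30-201 held 21.4% ± 2.37 (SD, n = 2). Rpl27-202 held 42 and 36 reads beside 276 and 324 on Rpl27-201. In Rpl35a, Rpl35a-205 had 82 and 98 reads and Rpl35a-201 had 48 and 39. Rpl10 and Rpl21 were split too, but on 40 and 35 known reads for Rpl10 and 71 and 54 for Rpl21. Rpl10-201 held 52.5% and 68.6%, a gap on few reads that gave an adjusted p of 1.00 in Fisher's exact test.

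In Rpl5 and Rpl22 the leading known transcript is not annotated as coding. All known reads of Rpl22, 203 and 177, were on Rpl22-205, annotated as a processed transcript. Rpl5-204, a 3-exon transcript annotated as retaining an intron at chr5:107904114-107908050 (mm10, plus strand), held 260 and 327 reads. The 8-exon coding transcript Rpl5-201, at chr5:107900502-107909005, held 189 and 286. Both libraries thus had more reads on Rpl5-204, with a share of 55.6% ± 3.14 (SD, n = 2). The near copy Gm15500, identical to Rpl5 over 1018 bases, had 298 and 403 reads, and how reads were divided between the 2 loci is unknown here.

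**Figure D5:**
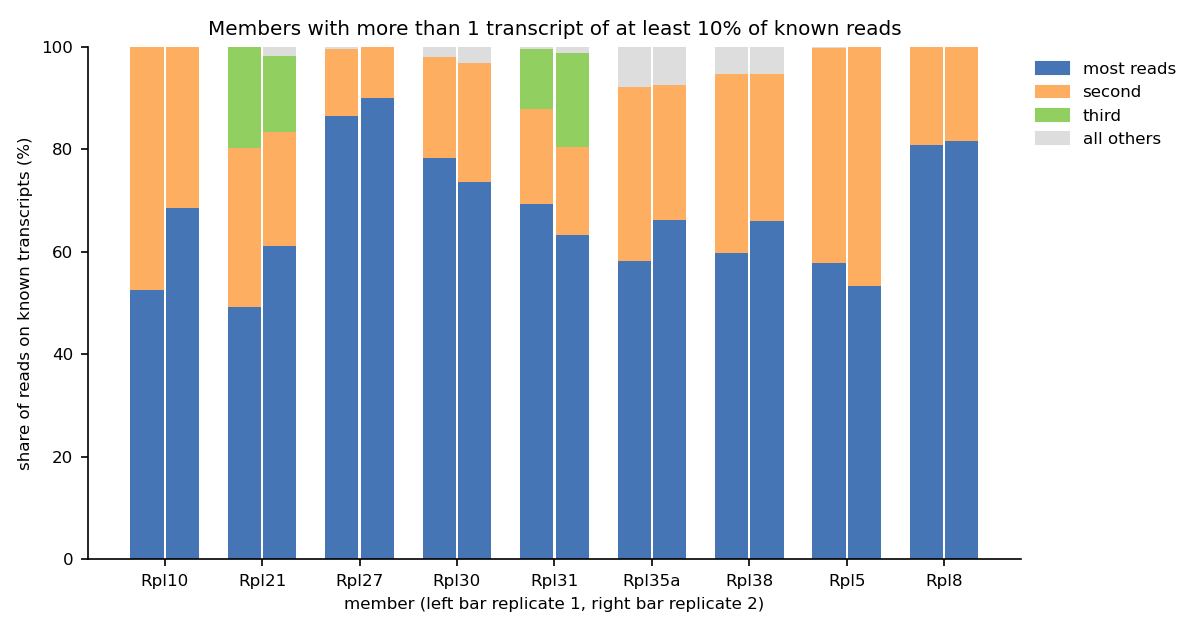
Share of known reads on each transcript for the 9 members with more than 1 transcript at 10% or more in both libraries; the left bar of each pair is replicate 1 and the right bar replicate 2. Blue is the transcript with most reads, orange the second, green the third and grey all others. Rpl31 has 3 such transcripts, and Rpl5 divides almost evenly, with 55.6% on its leading transcript.

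Spliced reads outside the annotation were few. Most of these reads lay on intron chains found in both libraries, although most of the chains were found in only 1. The reads followed 263 intron chains in replicate 1 and 272 in replicate 2, with 782 and 785 reads. Of these, 116 chains in 40 members occurred in both libraries, or 44.1% and 42.6% of the chains and 73.7% and 76.1% of their reads. In 92 of the 116, 1 intron of the leading transcript was replaced by 1 other. The donor side alone had moved in 65, the acceptor side alone in 22, and both in 5. In 62 of them the edges moved by 6 bases or fewer in sum. A single form was the most frequent: in 38 chains of 29 members the donor lay 4 bases further into the intron, while in 1 chain it lay 4 bases further into the exon.

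The most abundant such chain was in Rpl9, whose product binds near the base of the stalk, with 63 and 94 reads, or 5.73% and 6.94% of the gene's reads. Its donor lay 2 bases further into the intron, at chr5:65389152-65389475 (mm10, minus strand). The deposited tables class this chain as having a splice site outside the annotation in replicate 1 and as a new combination of annotated sites in replicate 2, and 18 of the 116 chains were classed differently in this way. Rpl37 had 54 and 49 reads on a chain whose donor lay 2 bases into the exon. Rplp2 had 51 and 32 reads on a chain whose acceptor lay 3 bases into the exon. The next were chains with the donor 4 bases into the intron in Rpl26 (19 and 15 reads), Rpl8 (15 and 15), Rpl15 (11 and 18) and Rpl13 (12 and 11). A further 3 completed the 10 most abundant, the last of them tied at 21 reads with a chain of Rpl38 (8 and 13): an acceptor 2 bases into the exon in Rpl7 (14 and 9 reads), a chain of Rpl41 that spans 2 introns of the leading transcript with 1 (10 and 12), and an acceptor 4 bases into the exon in Rpl13 (10 and 11). Of the 10, that of Rpl9 took the largest share of its gene in both libraries, followed by that of Rplp2 in replicate 1 (5.58%) and that of Rpl15 in replicate 2 (3.67%).

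Overlapping genes bear on a few members. By annotation 13 members overlap another protein-coding gene, 10 of them on the opposite strand, and how strand entered the counting is not given in the sources used here. Rpl15 overlaps Nkiras1, which had 258 and 263 reads, and Rpl3 overlaps Syngr1, which had 171 and 155. For Rpl13 and Rpl13a another protein-coding gene model on the same strand, Gm20388 with 55 and 70 reads and Gm45713 with 89 and 58, overlaps the member.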

How the data were processed

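The deposited tables hold counts: whole reads that the authors assigned to each transcript model of each library, with no normalization. Exon number and length per model (other values) stand beside them, per the file headers. Positions of GENCODE M21 features on mm10, and of models added per library by the long-read classifier TALON, are in the deposited annotations. Aligner, instrument and TALON version were not given in the sources used here.

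Counts were summed per annotated gene, all model classes included, and divided by the library total. Gene spans came from the GENCODE M21 annotation, since 16108 of 55536 genes had another span in the deposited annotations. Genes with at least 10 reads over both libraries were tested by an exact two-sided binomial test, and shares by Fisher's exact test on genes with at least 20 reads in each library (SciPy 1.17.1), both adjusted by Benjamini and Hochberg's method over all genes tested. Ratios have 0.5 reads added. Both tests were run on simulated counts with planted differences and counting noise only. That does not show how they behave where libraries differ by more than counting noise. BLAST 2.17.0 found near copies. As 1 group leaves no spread to model, edgeR 4.0.16 and DESeq2 1.42.0 supplied scaling factors only.

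Members and lists were chosen with earlier results of these data known. Named members were the 8 highest and 6 lowest by level, those at 0, paralogs, stalk genes, Rpl5 and Rpl11, the 6 highest and lowest known shares, divided genes, the 10 most abundant chains outside the annotation and the 6 named retrocopies with most reads. Any other member named was chosen after its values were seen. Protein sequences were not used here, and some items are not reported here.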

Additional observations from a re-analysis of the deposited data

How the results depend on the processing

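No paired analysis was possible because the libraries form 1 group. Counts of members called stayed at 0 lower and 0 higher with TMM factors, DESeq2 size factors, no read filter, a minimum of 50 reads, known and incomplete-match models only, and named retrocopies (Rpl genes with the suffix -ps and a number) added. They were also 0 in 2 settings chosen after seeing the data, near copies added and only known models of named retrocopies added. Without the size limits, 2 members were lower and 9 higher, 2 differed in known share and 1 in leading isoform share; in each case the size limit is what removed them. The summed level, 31906 CPM, became 33501 without mitochondrial reads in the total, 39333 with known and incomplete-match models only (in the total too), 36143 with named retrocopies added and 41261 with near copies added. It was 31124 to 32688 with 1 library left out. The median, 587 CPM, became 616, 721, 622 and 735 in the same 4 settings, 570 over all 50 members, and 581 to 599 with 1 library left out. The known share, 93.9%, became 98.0% with incomplete matches counted as complete and 94.1% over spliced reads, and was 93.8% to 94.0% with 1 library left out. Reads of named retrocopies equalled 13.3% of member reads, 12.8% with known models only, and 13.0% to 13.5% with 1 library left out. Among the members tested, depth limits Rpl17, Rpl10 and Rpl21 most, with fewer than 100 reads per library each; Rpl39l, Rpl10l and Rpl3l had too few reads to test.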

Other observations

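Of the genes named as Rpl retrocopies, Rpl21-ps9 had 0 reads in replicate 1 and 346 in replicate 2. Of these, 344 were on a single-exon model of 3450 bases at chr2:156388063-156391512 (mm10, plus strand), which lies outside the annotated pseudogene at chr2:156386741-156387222. The model lies opposite 2900097C17Rik, a long intergenic RNA by annotation with 600 and 708 reads. These reads are counted in the totals of named retrocopies but not among the near copies found by sequence.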
